A study of Mus musculus with 2 samples.

Results

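In mouse embryonic stem cells that express YFP-tagged H2A.Z, 455 wide regions were enriched for the K3R3 mutant of the histone where the looser wild-type list had no region. They were chosen from the 110435 regions of the stricter K3R3 list by 3 conditions. Each was at least 1000 bp wide, lay on an autosome other than 6 and 8, and was not overlapped by a single base pair of a looser wild-type region. The stricter list is named in its header by the threshold 1e-12 and the looser by 1e-09. On the 17 autosomes used, the stricter K3R3 list held 9053 regions of at least 1000 bp, so these 455 made up 5.03% of them. Of K3R3 regions of any width on these chromosomes, 27.7% lacked a looser wild-type region. Both shares follow from the rule and are descriptions of the lists.

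The study used chromatin immunoprecipitation followed by sequencing, with 1 library per group. One group carried H2A.Z-YFP and the other H2A.Z.K3R3-YFP, in which lysines 119, 120 and 123 of the C-terminal tail are arginines. Both were V6.5 cells by their strain label (129SvJae and C57BL/6, male), while the protocol names KH2 embryonic stem cells as the parent of the transgenic lines. In both groups the transgene was delivered by lentivirus behind a CMV promoter under an inducible rtTA system, switched on with doxycycline at 1 µg/ml. YFP-positive cells were sorted in both, and both carried a hairpin against the 3′ UTR of endogenous H2A.Z. The antibody (Abcam Ab290) recognises the fluorescent tag, so the lists describe the tagged protein only. Any difference below is between 2 libraries, without a replicate check, a read depth or a p-value. Intervals are 95% Wilson intervals, so they hold counting error alone, as if neighbouring regions were independent. The labels do not say whether a line was 1 clone, and region lists hold no marker expression by which to check the cell type.

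H2A.Z replaces the core histone H2A in nucleosomes that flank promoters and lie at enhancers, where chromatin remodellers of the SRCAP and p400 families insert it. In embryonic stem cells it is found both at active promoters and at the poised promoters of developmental regulators that carry Polycomb marks. The C-terminal tail of H2A.Z can be mono-ubiquitylated by the Polycomb ligase RING1B, and the bromodomain protein BRD2 binds H2A.Z-containing nucleosomes. The comparison addresses whether a histone without the ubiquitylated lysines is found where the wild type is not.

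The name "K3R3-only" did not hold for all 455. A stricter wild-type region overlapped 135 of them (29.7%, 25.7 to 34.0), and 320 (70.3%, 66.0 to 74.3) were free of wild-type regions in both lists. Among all wide K3R3 regions these 320 were 3.53%. The looser K3R3 list was compared next, though it comes from the same library and is not a replicate. It wholly held 98.7% of all wide K3R3 regions. Of the 455 regions, 415 lay wholly inside a looser K3R3 region, and 40 (8.79%, 6.52 to 11.8) had no looser K3R3 region over any part. The same absence held for 74 of the 8598 wide K3R3 regions shared with the wild type (0.861%, 0.686 to 1.08). Of stricter K3R3 regions of any width on these chromosomes 6.87% were absent, and these shares were not matched for width. Regions present in both K3R3 lists and free of both wild-type lists numbered 286. In 279 of these the looser K3R3 form was also free of looser wild-type regions.

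The lists of a library drop regions whole, and this touches the 135 regions directly. Every wide stricter K3R3 region was either wholly contained in the looser K3R3 list (8939 regions) or wholly absent from it (114 regions, 1.26%), and none was partly covered. In the wild type 9150 wide regions were contained and 82 (0.888%) absent. The 135 regions were overlapped by 156 stricter wild-type regions, and none of the 156 overlapped any looser wild-type region. The rule fixed this in advance. Of 80686 stricter wild-type regions of any width, 5081 were absent from the looser list and 0 partly covered. A contained one would have brought a looser region over the K3R3 region. A region on chromosome 2 from 30653351 to 30654475 shows the extreme case. The stricter lists of both libraries gave it the same start and the same end, 1125 bp apart, and the looser K3R3 list held it as 1175 bp, but the looser wild-type list left a gap there between matching neighbours. Across the 135, stricter wild-type regions covered a median of 55.0% of the K3R3 region (quartiles 29.2 and 75.8). They covered at least 50% of 78 regions and the whole of 6. The widest wild-type region over each had a median of 675 bp, against a median K3R3 width of 1225 bp. These 135 therefore count as mutant-only through the looser wild-type list alone, and several results are given below with and without them.

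Few wide K3R3 regions were covered only slightly by the wild type, but partial cover was common. Of the 9053 wide K3R3 regions, 455 were covered to exactly 0% by looser wild-type regions, but only 7 were covered above 0 and up to 10%, and 30 between 10 and 20%. The count rose from there to 513 between 80 and 90% and 7110 above 90%, and 4409 regions were wholly covered. With the wild-type lists combined, 320 regions stood at 0%, 15 above 0 and up to 10%, and 39 between 10 and 20%. The next classes of 10% held 58, 66 and 127 regions, up to 50%. Looser wild-type regions had a median width of 325 bp, and how region sizes shape the low classes was not tested. The wild-type library gave the same shape in mirror image. For its 9232 wide stricter regions on these chromosomes, 410 (4.44%) were covered to 0% by looser K3R3 regions, 5 above 0 and up to 10%, and 7389 above 90%.

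**Figure D1:**
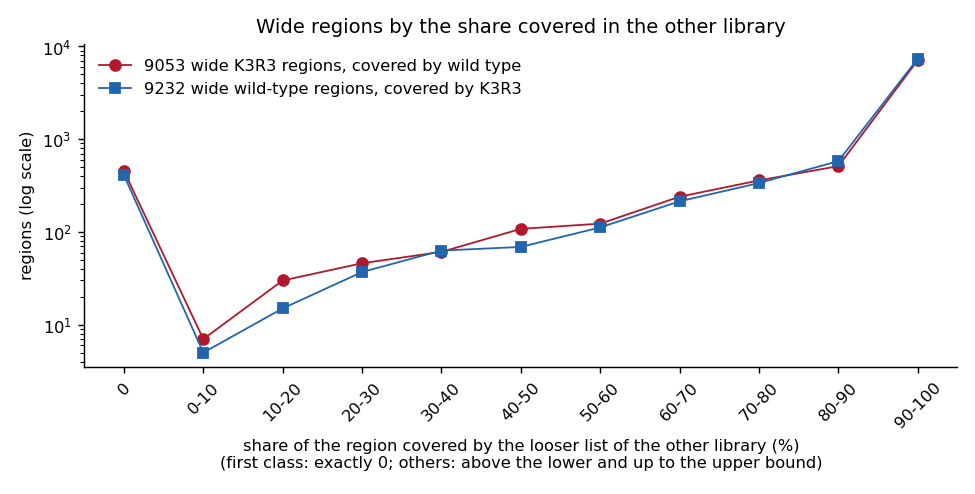
Number of wide regions (log scale) by the percentage of the region covered by the looser list of the other library, for 9053 K3R3 and 9232 wild-type regions. Both libraries show a separate group at exactly 0% (455 and 410 regions), a minimum just above it (7 and 5) and most regions above 90%.

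The regions were near the lower end of wide K3R3 regions. The rule itself favours narrower regions, since a single overlapping base pair excludes a region and a wider one has more positions to overlap. How much this adds to the differences in width was not tested. Their median width was 1175 bp (quartiles 1075 and 1400, range 1000 to 6875), against 1300 bp (1125 and 1650) for the shared wide regions. The 320 free of both wild-type lists had the same median, 1175 bp. Together the 455 covered 599500 bp. The share without a looser wild-type region was 6.20% (5.62 to 6.84) of K3R3 regions from 1000 to under 1500 bp and 3.03% (2.35 to 3.88) from 1500 to under 2000 bp. It was 1.85% (17 of 917, 1.16 to 2.95) from 2000 to under 3000 bp. For regions free of both wild-type lists the shares in the same order were lower, at 4.45%, 2.15% and 0.763% (7 of 917). At 3000 bp and above 6 of 170 regions qualified (3.53%, 1.63 to 7.49), of which 3 were free of both wild-type lists. At the width threshold itself 31 regions of exactly 1000 bp qualified, and 34 regions of 975 bp would have. These were 6.09% and 6.05% of all K3R3 regions of those widths, so the limit did not fall at a break in the data.

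Where the looser K3R3 list held the region, it gave nearly the same extent. The looser form was the same width in 66 of 415 cases and wider in 349, and the median gain was 25 bp (quartiles 25 and 50). Only 15 looser forms were at least 1.5 times as wide, 20 joined the region to another stricter K3R3 region, and 11 reached a looser wild-type region. The 40 regions absent from the looser K3R3 list had a median width of 1112.5 bp, and 34 of them were free of both wild-type lists.

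The widest of all was a domain of 6875 bp on chromosome 18 (63811326 to 63818200). The looser list gave it 6925 bp, a K3R3 region of 250 bp followed 375 bp downstream, and the nearest wild-type region of either list was 33275 bp away. Within 100 kb the looser lists held 4 other K3R3 and 2 wild-type regions, so it lay in a stretch with few regions in either library.

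Next in width were neighbours on chromosome 10. A region of 4475 bp (58755026 to 58759500), free of both wild-type lists, stood 400 bp from one of 2900 bp (58751726 to 58754625). The latter was covered to 23.3% by a stricter wild-type region of 675 bp at its right end. The stretch between their outer ends was thus nearly filled in K3R3, while the nearest looser wild-type region was 100 bp wide and 1125 bp to the left.

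The region of 3250 bp on chromosome 19 (3436251 to 3439500) lay inside a series of regions that matched between the libraries. K3R3 regions of 550 and 275 bp to its left corresponded to looser wild-type regions of 650 and 225 bp, and one of 750 bp to its right to a wild-type region of 750 bp. The wild type had nothing over the 3250 bp itself in either list. The looser K3R3 form ran on to 3775 bp and reached the 225 bp wild-type region.

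A region of 2850 bp on chromosome 17 (27520926 to 27523775) had matched regions on its left. To its left, K3R3 regions of 375 and 400 bp had looser wild-type counterparts of 525 and 300 bp. Over the region itself and the K3R3 regions of 575 and 700 bp to its right the wild type had none, and the next K3R3 region, of 2675 bp, was matched by a looser wild-type region of 1200 bp.

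On chromosome 3 a region of 2225 bp (122340651 to 122342875) ended 350 bp before a K3R3 region of 1275 bp. That neighbour was called at 1300 bp in the looser lists of both libraries, with the same start and end. On chromosome 12 the region of 2100 bp (114117751 to 114119850) followed K3R3 regions of 1650, 1125 and 1150 bp, which the stricter wild-type list held as 1650, 1200 and 1125 bp.

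Of the other regions among the 10 widest free of both wild-type lists, that of 2325 bp on chromosome 10 (79626501 to 79628825) lay 1700 bp from the nearest wild-type region. That of 2225 bp on chromosome 4 (73878701 to 73880925) lay 3050 bp away. The gap was 2075 bp for the region of 2025 bp on chromosome 2 (30872576 to 30874600). The region of 2075 bp on chromosome 1 (90151301 to 90153375) was the most remote of these after chromosome 18, at 19225 bp. A wild-type region therefore stood within 5000 bp of 8 of these 10, and in every one of the 10 the K3R3 region was present in both K3R3 lists.

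**Figure D2:**
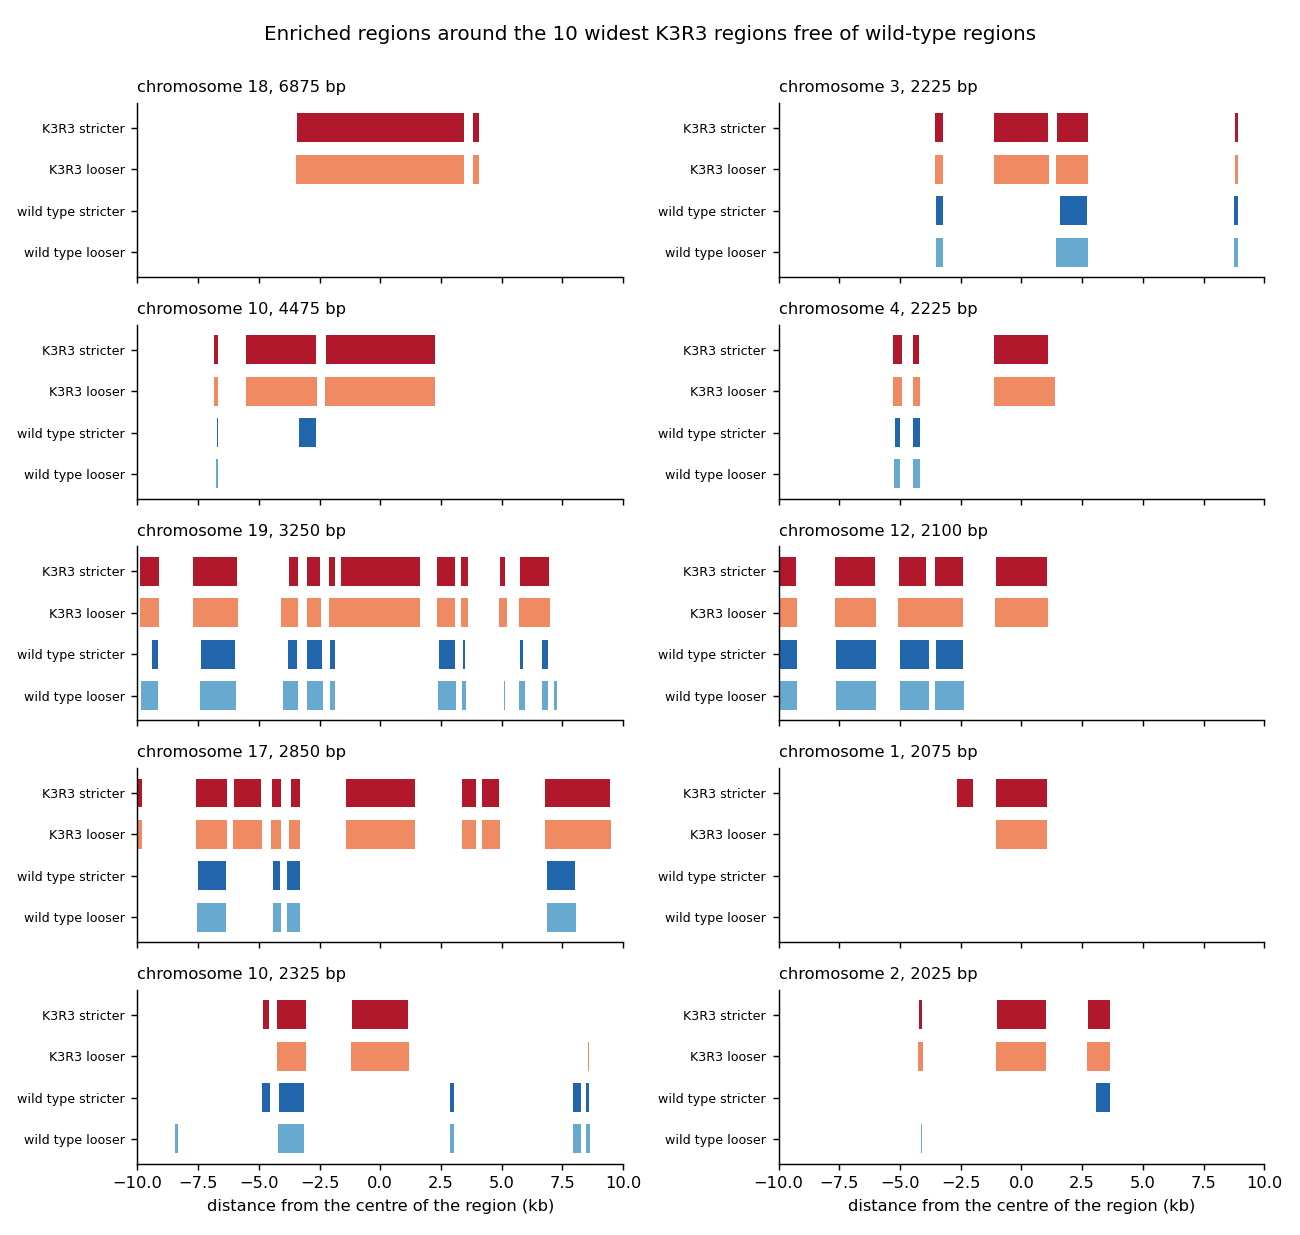
Regions of the 4 deposited lists within 10 kb of the centres of the 10 widest K3R3 regions free of wild-type regions in both lists, ordered by width down the left and then the right column. Bars are called regions, red for K3R3 and blue for wild type. The K3R3 bar at the centre has no blue bar beneath it, while in most panels neighbouring bars are matched between the libraries; the widest (6875 bp, chromosome 18) and that of 2075 bp (chromosome 1) have no wild-type bar in view.

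Among the 10 widest regions 5 more were overlapped by a stricter wild-type region. One of 3725 bp on chromosome 10 (74399201 to 74402925) was covered to 33.6% and had no looser K3R3 form of its own. Its left neighbour of 3625 bp was held by the looser wild-type list at 3425 bp. The region of 3300 bp on chromosome 12 (113509301 to 113512600) was covered to 44.7%, that of 2550 bp on chromosome 18 (25706476 to 25709025) to 45.1%, that of 3125 bp on chromosome 4 (106791276 to 106794400) to 13.6% and that of 2925 bp on chromosome 5 (129650901 to 129653825) to 7.69%. In each of these the K3R3 region extended well past the stricter wild-type region over it.

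Wild-type regions were usually close by. For the 320 regions that none overlapped, the nearest wild-type region of either list was a median of 1625 bp away (quartiles 675 and 3725, range 175 to 170650). It lay within 1000 bp for 118 of them, from there to 5000 bp for 139, to 10000 bp for 36, and farther for 27 (8.44%). Wild-type regions stood within 10000 bp on both sides of 216 regions and on a single side of 77. Both sides were occupied within 5000 bp for 126 (39.4%), and within 1000 bp for only 14.

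**Figure D3:**
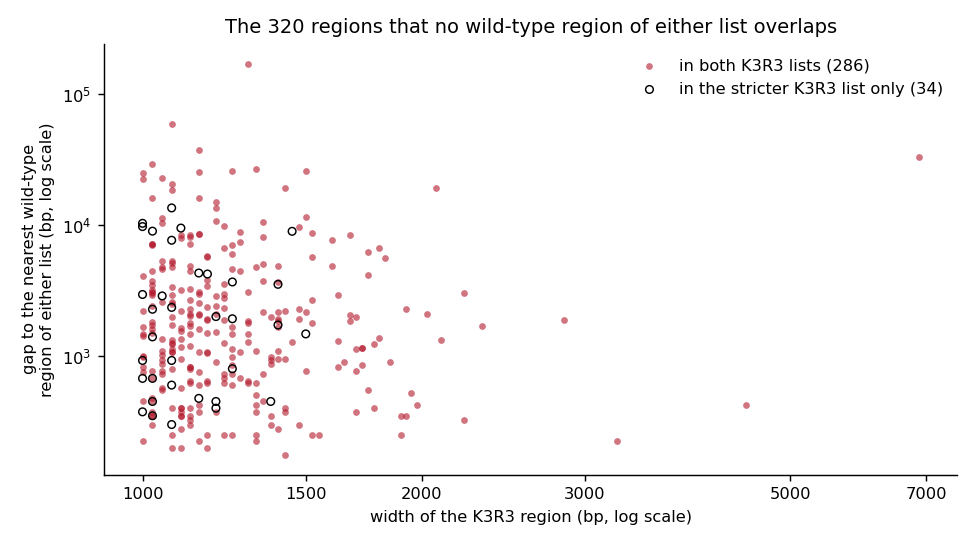
Width of each of the 320 K3R3 regions that no wild-type region overlaps (log scale, bp) against the gap to the nearest wild-type region of either list (log scale, bp). Filled points are in both K3R3 lists (286), open points in the stricter list only (34), and most lie between 1000 and 1500 bp in width and under 10000 bp in gap, with the domain of 6875 bp at the far right.

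The 27 remote regions had a median width of 1150 bp and lay on 12 chromosomes. The farthest, of 1300 bp on chromosome 7 (46529326 to 46530625), was 170650 bp from the next wild-type region to its right and 7472700 bp from the next to its left. Neither library had another region of any list within 100 kb of it. A region of 1075 bp on chromosome 14 (63583901 to 63584975) was 59325 bp from a wild-type region, and one of 1150 bp on chromosome 9 (115778576 to 115779725) 37525 bp. A region of 1025 bp on chromosome 10 (95235526 to 95236550) was 29075 bp away and had 12 looser K3R3 regions but 3 wild-type regions within 100 kb. These 4 and the chromosome 18 domain were each present in both K3R3 lists. The 27 regions had a median of 12 looser K3R3 and 8 looser wild-type regions within 100 kb, against 30 and 25 around all 455. The choice by distance from the wild type lowers the wild-type count by construction.

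Beside the regions, K3R3 coverage was above wild-type coverage, and the gap was smaller farther out. Between 1 and 2 kb from the centre, looser K3R3 regions covered 14.5% of positions and looser wild-type regions 9.10%. Between 2 and 5 kb the values were 14.5% and 10.4%, and between 5 and 10 kb 12.8% and 9.98%. Around the 8598 shared wide K3R3 regions the libraries were closer at each distance, with 16.0% and 14.7%, then 12.6% and 11.3%, then 11.4% and 10.3%. The choice of members bears on the nearest of these distances, since the wild type is absent over the region itself. Over all positions of these chromosomes up to the last region, looser regions covered 2.17% in K3R3 and 1.90% in the wild type. The members thus lay where regions of both libraries were dense. At their centres the stricter wild-type list covered 18.02% of the 455, while the looser list covered none by the rule.

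**Figure D4:**
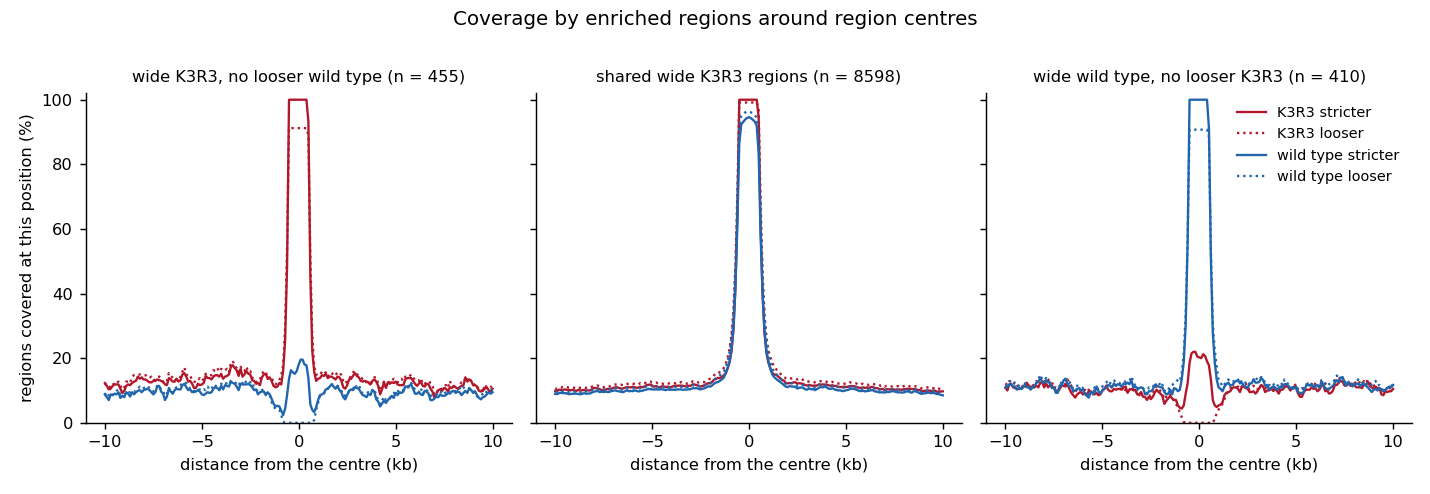
Percentage of regions covered at each distance from the centre (kb), by each of the 4 lists, for the 455 K3R3 regions without a looser wild-type region, the 8598 shared wide K3R3 regions and the 410 wide wild-type regions without a looser K3R3 region. Solid lines are the stricter and dotted lines the looser lists; the central peak of 1 library and the dip of the other follow from how the regions were chosen, and the flanks of all 3 panels lie near 10 to 15%.

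Most neighbouring K3R3 regions had a wild-type partner, as did most stricter K3R3 regions in general. Of the 97115 stricter K3R3 regions of any width on these chromosomes, 26866 (27.7%) lacked a looser wild-type region. Within 10 kb of the 455 regions lay 1999 other stricter K3R3 regions, of which 1373 (68.7%, 66.6 to 70.7) overlapped a looser wild-type region. Around the shared wide regions the share was 76.0% (75.5 to 76.6). Where a neighbour of the 455 had a single wild-type partner, both ends agreed within 100 bp in 1031 of 1352 cases (76.3%), against 72.2% around the shared regions. At least 1 such shared neighbour was found for 399 of the 455 (87.7%, 84.4 to 90.4). The values were nearly the same for the 320 free of both lists, with 68.8% of neighbours shared and a shared neighbour for 284.

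Surrounding K3R3 regions outnumbered wild-type regions, as they did over these chromosomes in general. Within 10 kb, not counting regions over the members, the looser lists held 2031 K3R3 and 1604 wild-type regions, a ratio of 1.27. The ratio was 1.13 around the shared wide regions and 1.21 over all looser regions of these chromosomes. Within 100 kb it was 1.18 and 1.13. The K3R3 count was the higher within 10 kb for 272 of the 455 regions (59.8%) and the lower for 60 (13.2%), with 123 equal. Around the 8598 shared wide regions it was the higher for 3608 (42.0%) and the lower for 1666 (19.4%). Among other stricter K3R3 regions within 100 kb, 28.2% lacked a looser wild-type region, against 24.1% around the shared wide regions. The share over all stricter K3R3 regions of these chromosomes was 27.7%, close to that around the members. Flanks of neighbouring regions share sequence and are counted more than once at 100 kb. The members were chosen where the looser wild-type list held no region, which bears on the counts within 10 kb.

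By chromosome, the share of wide K3R3 regions without a looser wild-type region ranged from 2.96% on chromosome 14 (9 of 304) to 8.94% on chromosome 12 (38 of 425, 6.58 to 12.03). Chromosome 17 came next with 46 of 558 (8.24%, 6.24 to 10.8), and chromosome 10 had 31 of 458 (6.77%, 4.81 to 9.45). The other 15 chromosomes without 12 and 17 gave 371 of 8070 together (4.60%, 4.16 to 5.08). Counted over regions free of both wild-type lists, the shares on chromosomes 12 and 17 were 6.59% and 6.27%, and that on chromosome 10 was 3.71%, inside the range of 1.97% to 4.26% on the remaining chromosomes. The mirror shares of wild-type regions were 4.53% on chromosome 12 and 5.63% on chromosome 17. Of the 17 autosomes used, chromosome 19 had the highest mirror share, 6.96% (4.72 to 10.1), beside a K3R3 share of 3.02% (1.65 to 5.47). The same rule gave 2 of 498 wide K3R3 regions on chromosome 6 (0.402%) and 4 of 660 on chromosome 8 (0.606%). On X it gave 1 of 86 (1.16%), and none of these belongs to the 455. The mirror counts of wide wild-type regions were 56 of 778 on chromosome 6 (7.20%) and 120 of 1051 on chromosome 8 (11.4%). On X the mirror count was 1 of 118 (0.847%).

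**Figure D5:**
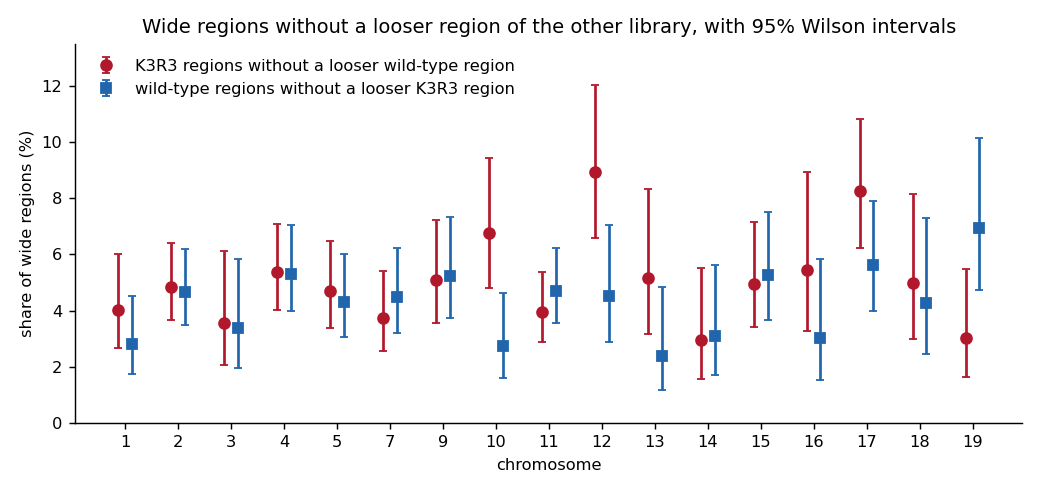
Percentage of wide regions without a looser region of the other library, by chromosome, with 95% Wilson intervals (bars), for K3R3 (circles) and the wild type (squares). Chromosomes 12 and 17 have the highest K3R3 values (8.94% and 8.24%), and chromosome 19 the highest wild-type value (6.96%).

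The regions were scattered, with a few local groups. They fell in 311 windows of 1 Mb, of which 227 held a single region. Another of the 455 lay within 10 kb of 37 regions (8.13%, 5.96 to 11.01) and within 100 kb of 111 (24.4%, 20.7 to 28.5). One of the 455 lay within those distances of 3.16% and 16.7% of the shared wide regions. The 410 wide wild-type regions without a looser K3R3 region were spaced much like the members. Another of the 410 lay within 10 kb of 7.80% and within 100 kb of 25.4% of them. One close group was on chromosome 9, where regions of 1100, 1250 and 1000 bp followed each other from 121820601 to 121824500 with gaps of 300 and 250 bp, none with a wild-type region over it. Those of 1250 and 1000 bp were also absent from the looser K3R3 list. This group was singled out after its values were seen.

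The window with most members was chromosome 17 from 27 to 28 Mb, with 9 of its 53 wide K3R3 regions, 7 of them free of both wild-type lists. Only 1 of its 39 wide wild-type regions lacked a looser K3R3 region. The windows described here were chosen by their number of members, so a high share in them follows from that choice. Of stricter K3R3 regions of any width in this window, 62 of 252 (24.6%) lacked a looser wild-type region. Over all these chromosomes that share was 27.7%. All 9 lay within 323.55 kb, and 3 of them stood between 27509301 and 27523775. Between the first and second (1025 and 1125 bp) stood a K3R3 region of 600 bp without a wild-type partner and one of 1250 bp with a partner of 1200 bp, and between the second and the last (2850 bp) stood the shared regions of 400 and 375 bp. The region of 1125 bp (27516326 to 27517450) had looser wild-type regions 325 bp to its left and 500 bp to its right. Looser regions numbered 238 in K3R3 and 217 in the wild type across the window, a ratio of 1.10, and covered 172 kb and 140.1 kb. Without this window chromosome 17 had 37 of 505 wide regions (7.33%, 5.36 to 9.94).

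Of the other regions in this window, those of 1400 bp (27357626 to 27359025), 1450 bp (27382001 to 27383450), 1075 bp (27542201 to 27543275) and 1025 bp (27680151 to 27681175) were free of both wild-type lists, with gaps of 1100, 1275, 250 and 675 bp. The last stood between K3R3 regions of 1100 and 875 bp that the looser wild-type list held at 1075 and 825 bp. The regions of 1175 bp (27385476 to 27386650) and 1800 bp (27502476 to 27504275) were covered to 40.4% and 27.8% by stricter wild-type regions, and the latter was absent from the looser K3R3 list.

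On chromosome 2 the window from 26 to 27 Mb held 7 members among 33 wide K3R3 regions, 5 of them free of both wild-type lists, and 1 of 23 wide wild-type regions lacked a looser K3R3 region. Regions of 1500 bp (26039451 to 26040950) and 1400 bp (26043226 to 26044625) lay 2275 bp apart there, and the wild type had regions of 775 and 825 bp on their outer sides but none between. A region of 1925 bp (26472976 to 26474900) followed a 300 bp region that both stricter lists gave with the same ends. One of 2025 bp (26179951 to 26181975) was covered to 88.9% by stricter wild-type regions of 600 and 1250 bp. Regions of 1075 and 1150 bp were 2500 and 1600 bp from the wild type, and one of 1250 bp was covered to 16.0%.

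The window from 30 to 31 Mb on chromosome 2 held 6 members among 43 wide K3R3 regions, and 4 wide wild-type regions among 43 lacked a looser K3R3 region there. Beside the identical pair at 30653351, it held the 2025 bp region already described, regions of 1200, 1050 and 1000 bp free of both wild-type lists, and one of 1300 bp covered to 9.62%. The windows on chromosome 2 from 166 to 167 Mb and on chromosome 5 from 114 to 115 Mb also held 6 members each.

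Most members lay in windows where regions of both libraries were dense, as did most wide K3R3 regions. Windows of 1 Mb were ranked by the length covered in the looser lists of both libraries and split into 4 equal groups. The densest group held 370 of the 455 and 6965 of the 9053 wide K3R3 regions. Its share was thus 5.31% (4.81 to 5.86), an interval that holds the overall 5.03%. The share was 4.41% (3.47 to 5.58) in the next group, 3.35% (2.13 to 5.23) in the third, and 2 of 75 in the sparsest. For regions free of both wild-type lists the shares in the same order were 3.72%, 3.19%, 2.42% and 1.33%. Intervals of neighbouring groups overlapped.

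The direction of the difference in number between the members and their mirror image depended on the width limit and the chromosomes taken. The wild type had 410 wide regions without a looser K3R3 region on these chromosomes, a ratio of 1.11 with an interval of 0.971 to 1.27 that includes equal numbers. With a minimum width of 2000 bp the ratio was 0.885 (23 against 26), and with all autosomes and X it was 0.787 (462 against 587). Of the 587, 56 lay on chromosome 6 and 120 on chromosome 8, beside 2 and 4 of the 462. With regions within 1000 bp of each other joined the ratio was 1.75. Without chromosomes 12 and 17 it was 1.02 (371 against 362). Free of both lists of the other library were 320 K3R3 and 272 wild-type regions. Over regions of any width the gap was larger, with 27.7% of stricter K3R3 regions lacking a looser wild-type region and 15.4% of stricter wild-type regions lacking a looser K3R3 region. The mirror regions had a median width of 1225 bp, 33.7% were overlapped by a stricter K3R3 region, and 9.27% were absent from their own looser list, all close to the values of the 455. Their surroundings differed in balance. Within 10 kb of the mirror regions the looser lists held 1340 K3R3 and 1369 wild-type regions, a ratio of 0.979 against 1.27 around the 455. Within 100 kb the ratio was 1.05 around the mirror regions and 1.18 around the 455. Each set was chosen where the looser list of the other library held no region, so the choice bears on this balance. How far it does was not tested. Wild-type regions stood within 10000 bp on both sides of 67.5% (62.2 to 72.4) of the 320, and K3R3 regions on both sides of 52.2% (46.3 to 58.1) of the 272.

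No sequence, gene or promoter is given for these regions, because the regions have mm9 coordinates and the tables used here follow another build, GRCm38. Whether they lie in exons, introns or UTRs was not analysed here.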

How the data were processed

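The authors deposited 4 lists of enriched regions in mm9, a looser (1e-09) and a stricter (1e-12) list for each of 2 libraries, 1 per group. The columns are start and end positions, a unit other than counts or signal, with no score. Per the submitters' processing notes, the build was mm9 and the tools included bedtools and Bowtie 0.12.3. Of the file headers only those of the wild type name the build. What called the regions, with which control and filters, is not given in the sources used here. Read depth is unknown. Per the file headers, both libraries carry the tag LSWCE, whose meaning is not stated. Coordinates lie on a 25 bp grid, and the smallest gap between regions is 225 bp.

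Positions are printed 1-based. A gap is the distance between region ends. The mirror set applies the same rule to the stricter wild-type list and the looser K3R3 list. Named regions are the 10 widest members, the 10 widest free of both wild-type lists, the 5 farthest from the wild type, and those of the 3 windows of 1 Mb with most members (ties by position). The members, rule and comparisons were chosen with earlier results of these data known. Planned gene annotation was not run, since no mm9 annotation was used here. The software was matplotlib 3.10.9, scipy 1.17.1, pandas 2.3.3 and numpy 2.4.6 under Python 3.11.15. Overlaps and distances of 110435 regions were checked against bedtools 2.31.1 with 0 differences. The rule was also run on a simulated wild-type list, a copy of the stricter K3R3 list with 200 wide regions removed. All 200 were recovered, which correct code must give on such a list, so it checks the code alone.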

Additional observations from a re-analysis of the deposited data

How the results depend on the processing

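No paired analysis was possible because only 1 library stood for each histone. The rule defines the members, so another rule gives another set. Of the alternatives, 2 were chosen after seeing the data: requiring the looser form to be apart too, and leaving out chromosomes 12 and 17. They changed no value beyond its interval or 1.5 times the count, though the latter gave a ratio of 1.02 (371 against 362). For the shifts that follow the cause was not tested, except that widths, lists or chromosomes are changed by construction. Values are the number of K3R3 regions, their share of wide K3R3 regions, those free of both wild-type lists, the median gap to the wild type (775 bp with overlapped regions at 0), and the ratio to the mirror count, where they moved. A minimum width of 500 bp gave 2847, 9.88%, 2229, 1050 bp and 1.49. A minimum of 2000 bp gave 23, 2.12%, 10, 0 bp and a turned ratio of 0.885 (23 against 26). All autosomes and X gave 4.49% and a turned ratio of 0.787 (462 against 587). The stricter wild-type list alone gave 3.65% and 1500 bp, and both lists 3.53% and 1625 bp. Counting regions under 50% covered gave 692, 7.64% and 0 bp. Requiring no looser wild-type region within 1000 bp gave 293, 3.24% and 1850 bp. Joining regions within 1000 bp gave 862, 648, 2025 bp and 1.75 (862 against 493). Requiring the region in the looser list of its own library gave 4.58%. With the looser K3R3 list as the source all 5 values stayed within their intervals or 1.5 times (541 regions, 4.86%, 364, 750 bp, 1.14).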
